A study of Rattus norvegicus with 4 samples.

Results

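The genes described here encode the digestive core of the lysosome: its limiting membrane proteins, its acid hydrolases other than the cathepsins, and the vacuolar proton pump (V-ATPase) that acidifies it. The list holds 45 genes, each matched to non-control array probes through the RefSeq accession printed for the probe. Of the 45, 42 had a matching probe, out of 16575 named genes on the array, and the hydrolase genes Gla, Naglu and Sgsh had none and are not described further by level. Of the 42, 41 were above background on all 4 arrays and passed into every comparison below.

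All samples were NR8383 cells, an alveolar macrophage line established from lung lavage of a normal rat, described in the labels as used after 20 passages. Every culture carried the same exposure, the Fe2O3 particle NRCWE018 at 2 µg/mL for 4 h, in 4 biological replicates. The design also has unexposed control cultures, which were not analysed here, so no value below is an effect of the particle. Total RNA of each culture was read on 1 single-colour Agilent array, and the 4 arrays lay at 4 positions of 1 slide, so culture and position cannot be told apart.

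The lysosome digests what a macrophage takes up. Its hydrolases are made in the endoplasmic reticulum, tagged with mannose 6-phosphate or carried by other receptors, and work only at low pH. The V-ATPase supplies that pH: its cytosolic V1 sector burns ATP and turns a ring in the membrane-bound V0 sector that moves protons inward. Transcription of many of these genes is driven by TFEB and its relatives, which bind an E-box in their promoters known as the CLEAR element. In alveolar macrophages the lysosome is where many inhaled particles end up.

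The E-box core was searched in the members' promoters, because it is the centre of the element that TFEB binds. The core is CACGTG, a palindrome, so that both strands are read at once. RefSeq promoter windows on the GRCr8 build, from 250 bases before to 50 bases after the gene start, were held for 35 of the 45 genes. The core was present in 9 of the 35 (25.7%), against 7.08% of all 27457 genes with a window. Among members above background on all arrays it was in 8 of 32 (25%), against 9.85% of the 7008 such genes. The element is already known from promoters of lysosomal genes, so these shares are a description and not independent support for it. By role, it was present in 3 of 8 membrane proteins and regulators (Lamp1, Cd63 and Mcoln1), 3 of 9 glycosidases (Glb1, Gaa and Idua), 2 of 5 genes of the V0 sector (Atp6v0d1 and Atp6v0e1) and the sulfatase gene Sgsh. None of 5 windows of the V1 sector, 4 of lipid and protein hydrolases or 2 of pump accessory proteins held it. The longer palindrome GTCACGTGAC, the full CLEAR consensus, overlaps the core and was in 0 of the 35 windows and in 0.28% of all windows. A match is a run of letters and not a measured binding site, and genes without one may hold it outside this window.

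The Lamp1 promoter is printed because it held 5 cores, more than any other member, and the shorter stretches show the flanks of single cores in a membrane protein, a channel, 2 hydrolases and a pump subunit. Each is read 5′ to 3′ in the direction of the gene and lies wholly before its start, with the core in capitals. On GRCr8 the Lamp1 stretch is chr16:83075064-83075258, minus strand, that of Mcoln1 chr12:6358224-6358253, plus strand, that of Cd63 chr7:1921942-1921971, plus strand, that of Gaa chr10:105028276-105028305, plus strand, that of Glb1 chr8:122963606-122963635, plus strand, and that of Atp6v0d1 chr19:50357283-50357312, minus strand.
Lamp1: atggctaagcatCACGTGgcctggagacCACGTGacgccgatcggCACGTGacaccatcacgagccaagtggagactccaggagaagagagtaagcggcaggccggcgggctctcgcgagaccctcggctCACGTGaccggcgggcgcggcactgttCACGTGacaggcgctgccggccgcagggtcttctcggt
Mcoln1: cgtcaagcttgtCACGTGttcgacccaggc
Cd63: ccgggcagcggcCACGTGgcctgtccaggc
Gaa: ccgcccacaaacCACGTGacccacgctgcc
Glb1: cggctccggagtCACGTGgcctgcagaggc
Atp6v0d1: ccccattgtggtCACGTGagatgcagtgcg

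**Figure D1:**
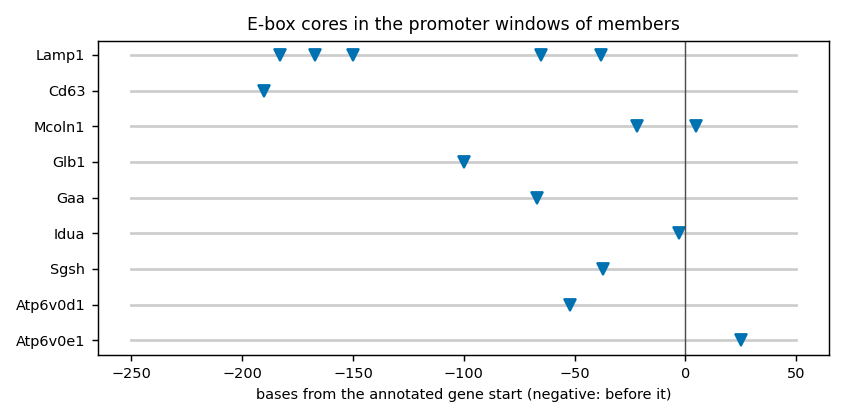
Position of each CACGTG core (triangles, first base) in the promoter windows of the 9 members that held one, in bases from the annotated gene start; grey lines span the window searched. Lamp1 held 5 cores and Mcoln1 2, and the cores of Atp6v0e1 and 1 of those of Mcoln1 lay after the start.

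Levels are log2 processed signal minus the log2 75th percentile of the same array, so that 0 is the level of a probe brighter than 75% of spots. Probes differ in how strongly they bind, and the level of one gene is therefore not set against that of another. The 75th percentile ranged from 756.5 on replicate 4 to 1082 on replicate 3, the median local background from 41 to 46, and no spot was saturated. Replicate 4 had the fewest probes above background, 37.9% against 40.2% to 41.2% on the other arrays. It also had the most spots marked as outliers, 1.62% against 1.13% to 1.21%. Macrophage genes fixed as markers were above background on all arrays in 8 of 8 cases, among them the lysosomal glycoprotein Cd68 at 4.96 ± 0.20 (SD, n = 4) and the CSF1 receptor gene Csf1r at -0.40 ± 0.11. Of 18 measured markers of lung epithelium, lymphocytes, granulocytes and mast cells, endothelium and fibroblasts, 17 were above background on no array, and the exception was Cdh5 at -4.23 ± 0.33. Some genes of the list are also known from osteoclasts, which share an origin with macrophages, so markers of that cell were read too: Calcr, Oscar and Acp5 were above background on all arrays, Ctsk on none. Dcstamp and Ocstamp, also among those markers, had no matching probe.

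Transcripts of nearly the whole digestive core were found in the exposed cells. The 41 of 42 members above background on all 4 arrays compare with 50.6% of all named genes. All 8 membrane proteins and regulators, all 8 measured glycosidases, all 7 lipid and protein hydrolases and activators, all 6 V0 subunits, all 8 V1 subunits and both accessory proteins of the pump were above background, as were 2 of 3 measured sulfatases. The exception was Arsb, a sulfatase that removes sulfate from dermatan and chondroitin sulfate. Its level was -7.61, -7.69, -7.72 and -7.27 in replicates 1 to 4 and its processed signal 5.48, 4.77, 5.12 and 4.91, below the lowest signal that counted as well above background on these arrays, 22.8, 20.7, 21.5 and 23.7. With 1 probe for Arsb, a signal below background does not show that the gene was silent.

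Genes of the lysosomal membrane were read first, since Lamp1 and Lamp2 are its defining markers. Lamp1, which with Lamp2 makes up much of the glycoprotein coat inside that membrane, was at 3.16, 3.46, 3.18 and 3.24 in replicates 1 to 4, highest in replicate 2. Lamp2, whose product also serves chaperone-mediated autophagy, was at 2.75, 2.79, 2.75 and 3.08, highest in replicate 4 with the other 3 close together. The tetraspanin gene Cd63 was at 5.55 ± 0.04, the smallest SD of any member and a 1.06-fold range. Its probe was spotted 10 times on each array, and the SD among those spots was 0.05, 0.07, 0.04 and 0.05 within the arrays. The level of each culture is an average over those spots, so the 2 kinds of SD are not alike and are not set against each other. Its mean processed signal lay between 35607 and 51484, and none of its spots was marked as saturated.

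The cholesterol exporters of the lysosome, the membrane protein Npc1 and its soluble partner Npc2, were at 1.28 ± 0.13 and 3.02 ± 0.20. Scarb2, a membrane protein of lysosomes and late endosomes, was at 0.17 ± 0.22, and the cation channel gene Mcoln1 at 1.21 ± 0.11. Tfeb itself, a transcription factor known to drive many lysosomal genes, was at -1.10, -1.28, -1.61 and -1.05, lowest in replicate 3.

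Among glycosidases, which strip sugars from glycoproteins, glycolipids and glycosaminoglycans, 5 of 8 were lowest in replicate 3. The share was 34.5% of all genes and 42.3% of those with a mean level above 0. Gusb was lowest in replicate 1, Manba in replicate 2 and Glb1 in replicate 4. Hexa, the alpha subunit of beta-hexosaminidase, was at 1.98, 2.25, 1.67 and 1.72, highest in replicate 2. The glycogen-degrading acid alpha-glucosidase gene Gaa was at 1.43, 1.25, 0.73 and 1.20, with replicate 3 below the rest. The sialidase gene Neu1 was at -0.51, -0.40, -0.94 and -0.12, again lowest in replicate 3 and highest in replicate 4, a 1.77-fold range. The remaining glycosidases were Gusb (beta-glucuronidase, -0.80 ± 0.09), Glb1 (beta-galactosidase, 0.82 ± 0.21), Manba (beta-mannosidase, -0.29 ± 0.14), Man2b1 (alpha-mannosidase, 2.98 ± 0.16) and Idua (alpha-L-iduronidase, -1.79 ± 0.19). In replicate 4 the 2 repeat spots of Glb1 differed with an SD of 0.64, against 0.08 to 0.09 within the other arrays. Man2b1 was spotted 10 times, with an SD of 0.03 to 0.07 among spots, and its level was 2.75 in replicate 3 and 3.02 to 3.10 in the other cultures. Its SD over the cultures was 1.07 times that of genes of like level (limma adjusted p = 0.995).

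Sulfatases remove sulfate groups and depend on an activating enzyme, Sumf1. Arsa, which acts on sulfatide, was at -1.51, -1.47, -1.97 and -1.54, low in replicate 3 with the other 3 close together. Galns, which acts on keratan and chondroitin sulfate, was at -4.73 ± 0.31. Its processed signal of 30, 46.2, 42.4 and 29.9 was little above the lowest signal counted as well above background, which limits what can be read from it.

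Hydrolases of lipids and proteins also held their lowest level in replicate 3 in 5 of 7 cases, against 34.5% of all genes and 42.3% of those with a mean level above 0, as all 7 have. Psap, the precursor of the saposins that present glycolipids to their enzymes, was at 5.26, 5.10, 4.80 and 4.97, and the acid lipase gene Lipa at 3.03, 2.81, 2.80 and 3.08. The acid sphingomyelinase gene Smpd1 was at 3.55, 3.40, 3.03 and 3.65, lowest in replicate 3. Asah1, the acid ceramidase that acts one step after Smpd1, was at 0.91, 0.65, 1.21 and 0.67, highest in replicate 3. The deviations of Smpd1 and Asah1 from their own means were opposite in sign in replicates 3 and 4 only. Both enzymes lie in the same pathway from sphingomyelin to sphingosine, and their values were each read from 1 probe with 1 spot. The GM2 activator gene Gm2a was at 1.84 ± 0.17, the tripeptidyl peptidase gene Tpp1 at 1.08, 0.99, 0.68 and 1.24 and the palmitoyl-protein thioesterase gene Ppt1 at 3.64 ± 0.10.

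Subunits of the V0 sector, the membrane-bound part of the pump, were all present, including both forms of subunit d. Atp6v0a1, one form of the large membrane subunit a, was at 0.04, -0.21, -0.60 and 0.03, and the proteolipid gene Atp6v0b at 3.50, 3.68, 3.32 and 3.52. Atp6v0c, the main proteolipid of the proton-carrying ring, was at 4.71, 4.49, 4.18 and 4.65. Replicate 3 was lowest in each of these 3 and in Atp6v0d1, thus in 4 of 6 V0 genes. The share was 34.5% for all genes and 42.3% for those with a mean level above 0. Atp6v0d2 was lowest in replicate 1 and highest in replicate 3, and Atp6v0e1 was lowest in replicate 2. The widely expressed Atp6v0d1 was at 3.05 ± 0.14, its counterpart Atp6v0d2, known from osteoclasts and macrophages, at 0.56 ± 0.09, and Atp6v0e1 at 3.78 ± 0.14.

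The V1 sector, which binds and hydrolyses ATP, was likewise complete for the 8 subunits listed. The catalytic subunit gene Atp6v1a was at 1.61, 1.29, 1.77 and 1.78, lowest in replicate 2. Atp6v1b2, the widely expressed form of subunit B, was at 4.24, 4.16, 3.98 and 4.18. The stalk and regulatory subunits were at 0.98 ± 0.18 (Atp6v1c1), 1.17 ± 0.14 (Atp6v1d), -0.36 ± 0.20 (Atp6v1e1), 4.17 ± 0.21 (Atp6v1f), 3.92 ± 0.14 (Atp6v1g1) and 1.56 ± 0.21 (Atp6v1h). The accessory protein Atp6ap1, needed for assembly of the pump, was at 3.69, 3.37, 3.61 and 3.99, lowest in replicate 2 and highest in replicate 4. Atp6ap2, the (pro)renin receptor, was at 0.30, 0.34, 0.40 and 0.22, within a 1.13-fold range.

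**Figure D2:**
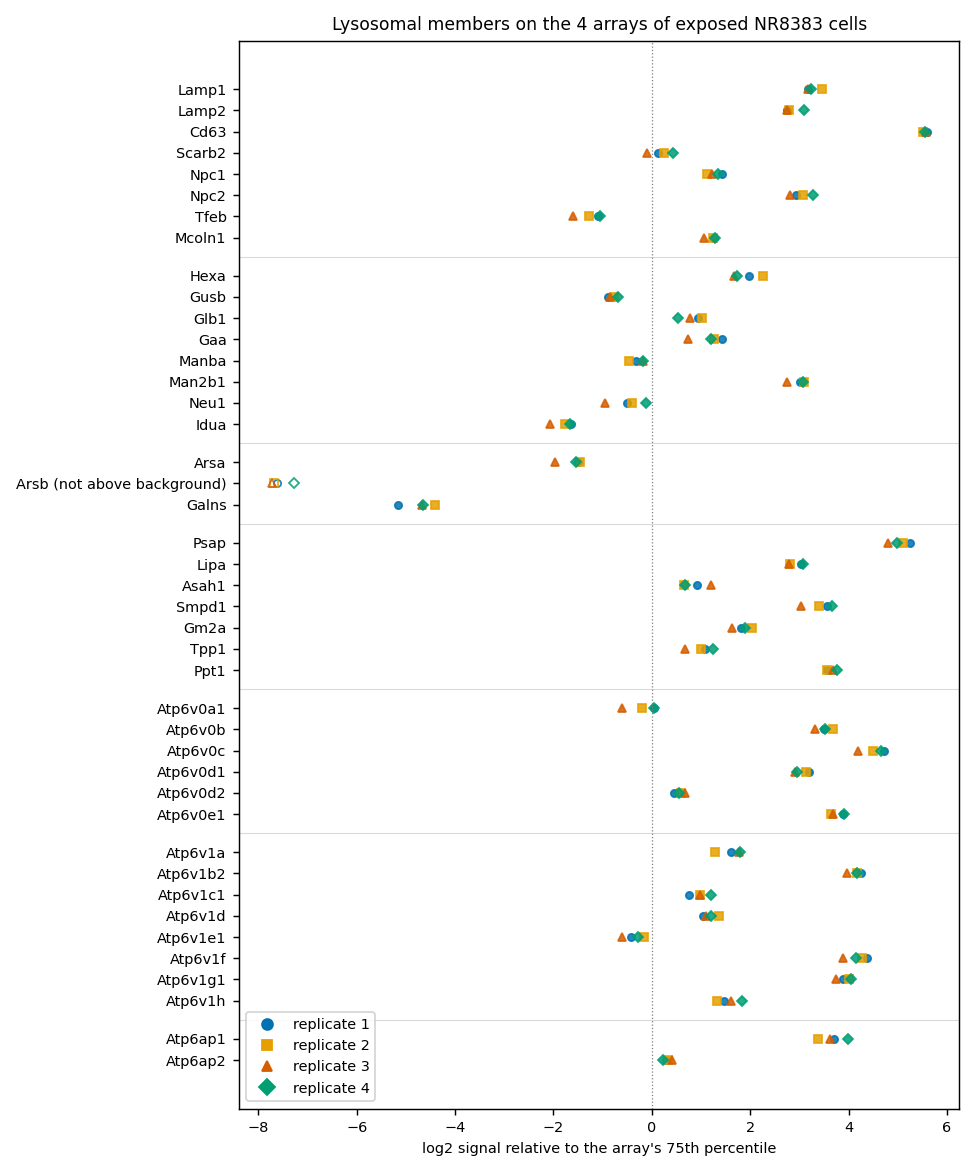
Level of each of the 42 measured members (log2 signal minus log2 of the 75th percentile on that array) on the 4 arrays, grouped by role; filled symbols mark genes above background on all arrays and open symbols the 1 that was not. Levels of different genes cannot be compared, and within a gene the 4 symbols lie close together, with replicate 3 leftmost in 23 of 41 genes above background.

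Read from the probe used for each gene, the members differed by at most 1.77-fold between the exposed cultures. For the 41 genes, the ratio of the highest to the lowest culture ranged from 1.06-fold (Cd63) to 1.77-fold (Neu1), with a median of 1.37-fold. The median SD over the 4 cultures was 0.19 for members and 0.18 for all 8383 genes above background, and 0.17 and 0.15 where only genes of mean level above 0 were read (32 members and 3720 genes). Each gene's variance was then set against that of all genes of like level with limma, in an upper-tail F test with Benjamini-Hochberg adjustment over the 8383 genes. None of the 41 members passed, against 0.191% of all genes. At so small a share, 0 of 41 does not set the members apart from other genes. At an unadjusted p under 0.05 the count was 0 of 41 members, against 5.77% of all genes.

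Largest relative to genes of like level was the spread of Smpd1, with an SD 1.86 times the prior value (limma adjusted p = 0.898). Neu1 followed at 1.80 times, Gaa at 1.77, Atp6ap1 at 1.76, Hexa at 1.66, Atp6v0c at 1.64, Atp6v0a1 at 1.63 and Asah1 at 1.53. None of these differences exceeded the spread of like genes by the test. At the other end stood Cd63 at 0.26 times and Atp6ap2 at 0.42 times. In 25 of 41 members the SD was above that of like genes, against 43.7% of all genes.

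**Figure D3:**
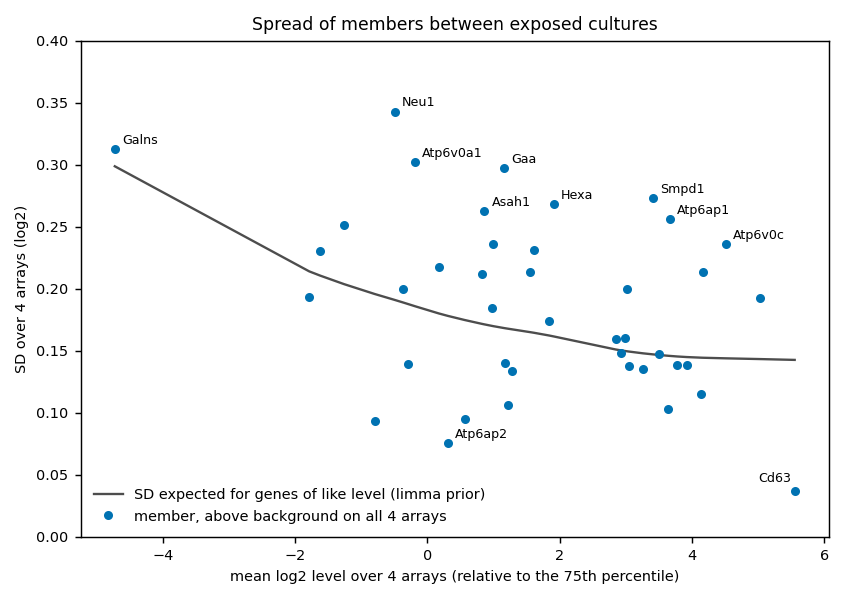
SD of each of 41 members over the 4 cultures (points, log2 scale) against its mean level, with the SD that limma's prior gives for genes of the same level (line, drawn through the members' levels). Labelled are the 8 members of lowest p with Galns, Atp6ap2 and Cd63; Neu1 had the largest SD, 0.34, and Cd63 the smallest, 0.04.

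Most members lay below their own mean in replicate 3. Of the 41, 23 (56.1%) were lowest there, against 34.5% of all genes. Replicates 1 and 2 were each lowest in 8, against 29.8% and 20.4% of all genes, and replicate 4 in 2, against 15.4%. In all, 32 members lay below their own mean in replicate 3, against 56.5% of all genes. Read only among genes of mean level above 0, 17 of 32 members were lowest in replicate 3, against 42.3% of 3720 genes. Below their own mean there were 25 of those 32 members, against 64.7% of the 3720 genes. Each gene's log2 level less its own mean over the arrays had a median over the members of 0.03, 0.02, -0.16 and 0.09 in replicates 1 to 4, and over all genes of -0.02, 0.01, -0.03 and 0.07. Replicate 4 was highest in 17 members, against 36.3% of all genes, a share close to that background. The list's size and direction are a description with no test, and single members did not pass the test of spread.

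The deviation in replicate 3 differed in its median between roles, which was not tested. The median was -0.24 in the 8 glycosidases, -0.22 in the 7 lipid and protein hydrolases and activators, -0.16 in the 6 V0 subunits, -0.14 in the 2 sulfatases and -0.12 both in the 8 V1 subunits and in the 8 membrane proteins and regulators. Only the 2 accessory proteins had a median above 0 there, 0.02, which was -0.04 after normexp background correction. The 4 members highest in replicate 3, against 20.1% of all genes, were Asah1, Manba, Atp6v0d2 and Atp6ap2. Among genes of mean level above 0, the median in replicate 3 was -0.14 for the 32 members and -0.06 for all 3720 genes. Without such matching for level, the median of all 41 members in replicate 3, less that of all genes, was -0.13. It was -0.10 with normexp and -0.07 after quantile normalization. Scaling on the 75th percentile of detected probes subtracts a constant per array and cannot move this difference. Replicate 3 had the highest 75th percentile of signal, 1082, and the highest median local background, 46, and the part of either in this pattern was not tested.

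**Figure D4:**
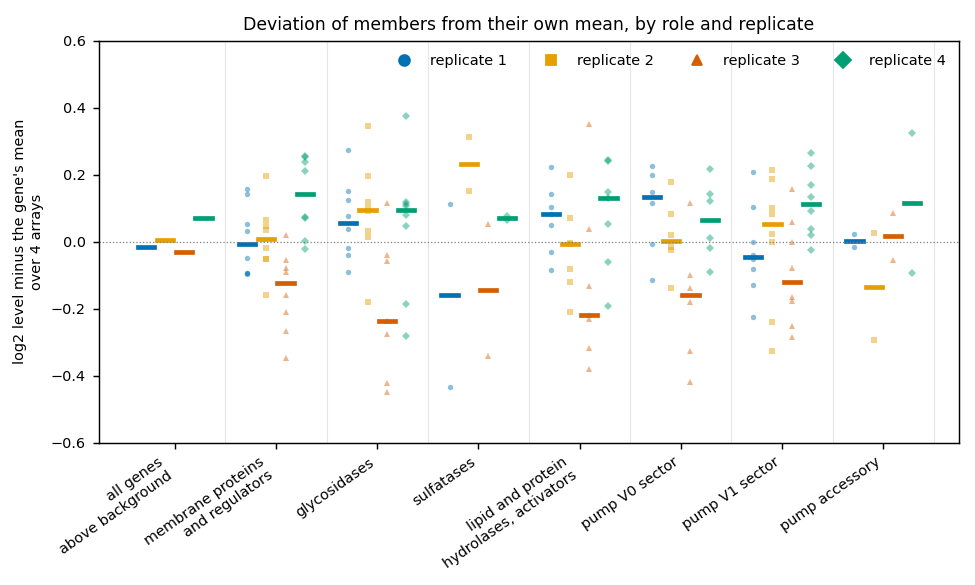
Log2 level of each member minus its own mean over the 4 arrays (small symbols), by role and replicate, with the group median (bars); the first column gives the medians over 8383 genes. The bars of replicate 3 lie at -0.24 for glycosidases and -0.22 for lipid and protein hydrolases, against -0.03 for all genes. For all genes of mean level above 0, not drawn, the median was -0.06.

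A second probe was present for 5 members, which gives another reading of the same RNA on the same arrays. For Atp6v0c the second probe was at 3.81, 3.61, 3.30 and 3.98, lowest in replicate 3 like the first. Both probes of Atp6v1h were lowest in replicate 2, the second at 1.28, 1.11, 1.43 and 1.42. For Atp6v1a the second probe, at -2.56, -2.33, -2.43 and -2.26, was lowest in replicate 1 and did not repeat the low value of the first in replicate 2. Lamp2, which is made in several splice forms, gave 0.11, -0.14, -0.01 and 0.06 with its second probe, highest in replicate 1 where the first was highest in replicate 4.

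In mean level the 2 probes lay furthest apart for Atp6v1a (1.61 and -2.39) and Lamp2 (2.84 and 0.007). In how they ran over the arrays the probes of Atp6ap2 disagreed most, though their means were alike (0.31 and 0.27). The second probe was at 0.58, 0.71, 0.70 and -0.91, low in replicate 4, where the first probe was at 0.22 and within 0.18 of its other values. That spot carried no outlier mark and had a processed signal of 403.3, against 1600 to 1758 on the other arrays. Over all member probes above background, 4 of 46 had 1 array apart from the other 3 by Dixon's test, this one among them, against 5.87% of all genes. With the mean over both probes, the limma adjusted p for Atp6ap2 was 0.559, the lowest of any member under any alternative.

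**Figure D5:**
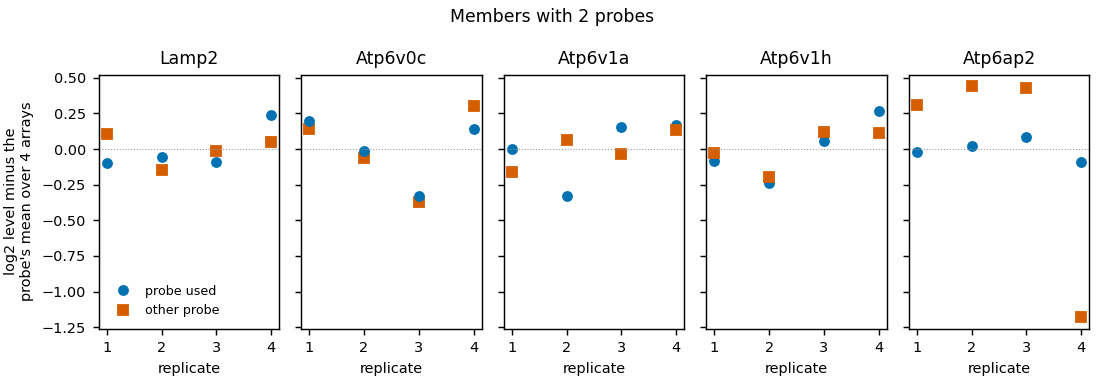
Log2 level of each probe minus its own mean over the 4 arrays, for the 5 members with 2 probes, by replicate; circles mark the probe used for the gene and squares the other. The 2 probes of Atp6v0c fall together in replicate 3, and the second probe of Atp6ap2 stands alone in replicate 4.

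Other genes of the lysosome were read from lists of 65 genes, of which 58 had a probe and 51 were above background on all arrays. Among other pump isoforms, 3 of 8 were above background: Tcirg1, the form of subunit a used in osteoclasts and phagocytes (4.38, 4.07, 3.87 and 4.40), Atp6v0a2 (-1.92 ± 0.16) and Atp6v0e2 (-3.33 ± 0.23). The tissue-restricted forms Atp6v1b1, Atp6v1c2, Atp6v1e2, Atp6v1g2 and Atp6v1g3 were above background on none. All 14 other measured hydrolases were present. Of 13 other membrane proteins and transporters, 12 were present, with Laptm4a at 1.72 ± 0.04, and Lamp3, a marker of dendritic cells and type II pneumocytes, was above background on none.

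The sorting machinery and the nutrient-sensing genes were present as well. All 8 measured sorting genes were above background, including both mannose 6-phosphate receptors, M6pr (4.34 ± 0.08) and Igf2r (2.64 ± 0.17). Of 15 genes of nutrient sensing and the factors related to TFEB, 14 were above background on all arrays, with Tfe3 at 2.30 ± 0.07 and Mitf at 1.28 ± 0.32, and Fnip1, a partner of folliculin, on 3. In limma's test of spread 0 of the 51 passed. An unadjusted p under 0.05 was found for 6, a share to be read beside the 5.77% of all genes, and these were Acp2, Acp5, Slc11a1, Nagpa, Tfec and Lamtor3. Lamtor3, a subunit of the complex that anchors mTORC1 to the lysosome, was at 1.31, 1.09, 1.01 and -0.24, low in replicate 4 (limma adjusted p = 0.151). The acid phosphatase gene Acp2 was at 2.07, 1.70, 1.77 and 0.93, also lowest in replicate 4 (limma adjusted p = 0.319). After normexp background correction both passed, with limma adjusted p of 0.00096 for Lamtor3 and 0.0102 for Acp2. Under that correction 156 of all 8383 genes passed, against 16 in the reported fit. Lamtor3 and Acp2 were lowest in replicate 4, the array with the fewest probes above background, and the part of that was not tested. The iron-containing acid phosphatase gene Acp5 was at -0.77 ± 0.55, and Slc11a1, which moves divalent metals across the phagosome membrane, at 1.69, 1.92, 1.24 and 1.98, both lowest in replicate 3 and highest in replicate 4. The median deviation of the 51 genes in replicate 3 was -0.06, and that of the 14 other hydrolases -0.13. Replicate 3 was lowest in 21 of the 51, among them 7 of the 14 other hydrolases and 6 of the 12 other membrane proteins and transporters. Of all genes 34.5% were lowest there, and 42.3% of those with a mean level above 0.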

How the data were processed

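Total RNA of 4 exposed NR8383 cultures was hybridised to single-colour Agilent arrays, 1 per culture. Feature Extraction 11.0.1.1 (named in the submitters' processing notes) gave the deposited intensity of each spot, which per the file headers was background-subtracted and spatially detrended. Arrays were not scaled to each other in these files. Median spot and local background intensity and flags of 0 or 1 were also read as deposited.

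Spots marked as outliers were dropped unless all spots of a probe were marked, and repeat spots were averaged. From log2 signal the log2 75th percentile of the array was subtracted, taken over unmarked spots among the 58717 that are not controls. Names came from RefSeq accessions in the GRCr8 gene table (21102 of 45598 probes named). A gene was read from its probe above background on most arrays, then of highest mean. The test of spread used limma 3.58.1 (R 4.3.3) on 8383 genes with a robust trended prior (9.18 prior degrees of freedom). It was also run on simulated data drawn from its own fitted prior, so that run does not check the prior. The spreads planted there were larger than that of any member relative to genes of like level. Promoter sequences are from RefSeq (GRCr8).

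The rule named all 45 members, with values on every array for members not above background, the 8 of lowest p for spread and the first 2 of each role. It named other listed genes where not above background or past the test, and the first 2 of each list, except that those of the other hydrolases are not reported here. Values of second probes, of Tfeb, Tpp1, Man2b1, Galns and Mcoln1 on single arrays, and all other genes named outside the list of 45 were chosen after their values were seen. Members, lists and tests were chosen with earlier results of these data known. Alternatives were the background correction, scaling, detection mark, probe rule, low-signal filter, prior and omission of each replicate. Planned protein features were not analysed here.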

Additional observations from a re-analysis of the deposited data

Results flagged for a closer look

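In each set of 4 values the highest or lowest array was checked for standing apart from the other 3, by its gap to the nearest array over the whole range (Dixon's test at the 95% level). Of 108 sets examined, 46 from member probes and 62 from other listed genes, 9 passed. Chance flags about 1 in 20, and 5.87% of all 8383 genes above background passed.

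Among member probes 4 stood out. The second probe of Atp6ap2 was low in replicate 4 (ratio 0.917, levels 0.58, 0.71, 0.70 and -0.91). Lamp2 was high in replicate 4 (0.875), and the channel gene Mcoln1 (0.845) and the sulfatase gene Arsa (0.851) were low in replicate 3. Mcoln1 was at 1.27, 1.25, 1.06 and 1.28, so that the gap is small in size.

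Of the other genes, 5 had 1 array apart: Gnptg, a subunit of the enzyme that makes the mannose 6-phosphate tag (0.876, low in replicate 3), Igf2r (0.844, high in replicate 1), Rragc (0.839, low in replicate 1), Ggh (0.834, low in replicate 1) and Tpcn1 (0.830, high in replicate 1). None of these 5 or of the 3 member probes used for their genes passed limma's test of spread; the second probe of Atp6ap2 was not in that fit on its own.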

How the results depend on the processing

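No paired analysis was possible because all samples belong to 1 group. The count of members above background was 41 under every alternative run for it, including the omission of each replicate. The count of members passing the test of spread was 0 in the reported fit and under all 12 alternatives, with 0 to 3 members at an unadjusted p under 0.05, while the count over all genes ranged from 5 with a constant prior to 156 with normexp correction. The median SD of the members ranged from 0.13 without replicate 3 to 0.19 without replicate 1. The median deviation of the members in replicate 3 stayed below 0, from -0.16 to -0.07, while that of all genes ran from -0.05 to 0.03. In replicate 4 it stayed above 0, from 0.03 to 0.11, as did that of all genes, from 0.005 to 0.114. Without replicate 3 the members' medians in replicates 1 and 2 changed sign, to -0.0008 and -0.026. With the other scaling percentile all levels fell, by 1.18 to 1.28 on the log2 scale, and 14 of 42 levels moved by 1 SD or more with normexp. With the mean over probes 3 levels moved by as much, those of Lamp2, Atp6v0c and Atp6v1a. The core CACGTG was in 7 of 35 windows when only bases before the start were searched, an alternative chosen after seeing the data. Precision is limited by 4 arrays and, for Galns and Arsb, by signal near background. P-values measure how far a gene's spread over these 4 arrays of 1 slide exceeds that of genes of like level. Spread shared by all genes does not enter them. With 1 array per culture, spread between cultures and between arrays cannot be told apart.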

Other observations

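Members with and without the E-box core were set side by side, a split chosen after seeing the data and described with no test. The 8 members above background whose window held CACGTG had a median deviation of 0.12, 0.06, -0.12 and 0.03 in replicates 1 to 4, and the 24 with a window and no core -0.01, 0.03, -0.20 and 0.14. In replicate 3 the first ranged from -0.42 to 0.02 and the second from -0.45 to 0.16, so that the ranges overlapped. Replicate 3 was lowest in 4 of the 8 and 15 of the 24, against 34.5% of all genes and 42.3% of those with a mean level above 0.

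Among the genes of the other lists, the core was in 10 of 48 windows, against 7.08% of all windows and 9.85% of those of genes above background. The full palindrome was in 3 of the 48, against 0.28% and 0.57%. Of 6 markers of osteoclasts 4 had a matching probe, and 3 of these were above background on all arrays. These were the calcitonin receptor gene Calcr at -0.72, -0.99, -0.30 and -0.58, the immune receptor gene Oscar at -3.97, -4.10, -4.12 and -3.57, and Acp5. Ctsk was above background on none.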
